A study of Homo sapiens with 6 samples.

Results

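Transcripts of 10 genes of the S100 family were measured in CAL-27 cells, a human tongue squamous carcinoma line, with and without knockdown of the transcription factor XBP-1s. The 10 genes were S100A2, S100A4, S100A6, S100A7, S100A8, S100A9, S100A10, S100A11, S100A14 and S100P. They were chosen by name as S100 genes of epithelium, with earlier results of these data known. They were found on the array through the RefSeq accession of each probe. Of 19740 genes with a named probe, these 10 were represented by 11 probes of 34127, that is by 20 of the 43118 spots per array that were not controls, because S100A7 was printed in 10 copies and S100A11 had 2 probes. Genes were measured on 6 one-colour Agilent arrays, 3 with RNA from CAL-27 cells carrying a short hairpin RNA against XBP-1s (shXBP-1s) and 3 with RNA from CAL-27 cells carrying a control hairpin (shCtrl). Both groups were the same line with a hairpin construct and no further agent is named in the labels. The sources used here do not say whether the arrays of a group came from separate cultures or whether the transduced cells were clones, so the p-values measure the spread between these arrays, which may be technical.

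S100 proteins are small calcium sensors with a pair of EF-hand motifs, and most of them work as dimers that open a binding surface when calcium rises. Some stay inside the cell, where they bind annexins, cytoskeletal proteins or transcription factors. Others are secreted or released from stressed keratinocytes and neutrophils, and act on receptors such as RAGE and TLR4 as alarm signals (alarmins). Most S100 genes lie together on chromosome 1 in the epidermal differentiation region, and S100P lies on chromosome 4. XBP-1s is the spliced, active form of XBP1, a factor of the unfolded protein response.

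Each value below is the log2 of the background-subtracted spot signal minus the log2 of the 75th percentile of that array, so that 0 is the level of a fairly bright spot. Values of different probes are not comparable as amounts, so S100 values are compared only between arrays for the same probe. The 75th percentile of the signal ran from 687.4 to 983.4 over the arrays, between 82.1% and 84.8% of spots were well above background, and no spot was saturated. XBP1 itself had a level of 1.87 ± 0.02 (SD, n = 3) in shCtrl and of -0.52 ± 0.02 in shXBP-1s cells, a log2 fold change of -2.39 (SE 0.04, limma with Benjamini-Hochberg adjustment, adjusted p = 2.81e-07), though the files do not say whether its probe tells the spliced form from the unspliced one. All 6 squamous epithelial markers examined (KRT5, KRT14, KRT17, TP63, DSG3 and SFN) were well above background on every array. The array headers place shCtrl replicates 2 and 3 in scan 1 and the other 4 arrays in scan 2, so that the scan 2 comparison rests on shCtrl replicate 1 alone. With 3 arrays per group the smallest exact permutation p for a single probe is 0.1.

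All 11 S100 probes were well above background on all 6 arrays. A probe was called changed when its adjusted p was below 0.05 and its fold change was 2 or more. By this rule 3 of the 11 probes were called, compared with 4.9% of the 27624 probes tested on the array. S100A10 and 1 probe of S100A11 were higher in shXBP-1s cells, where 2.29% of all tested probes were called higher, and S100A4 was lower, where 2.61% were called lower. With no minimum fold 8 of the 11 probes passed the adjusted p, against 41.7% of all probes, and the groups did not overlap for 9 of 11, against 52.4%. Because the genes were chosen with earlier results of these data known, these shares describe the list and carry no test. With each gene taken by its brightest probe, the median log2 fold change of the 10 genes was 0.21, and that of all 16821 tested genes was -0.04. The members listed as secreted and those listed as constitutive or intracellular are described in turn, beginning with the genes of the second list that were called.

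**Figure D1:**
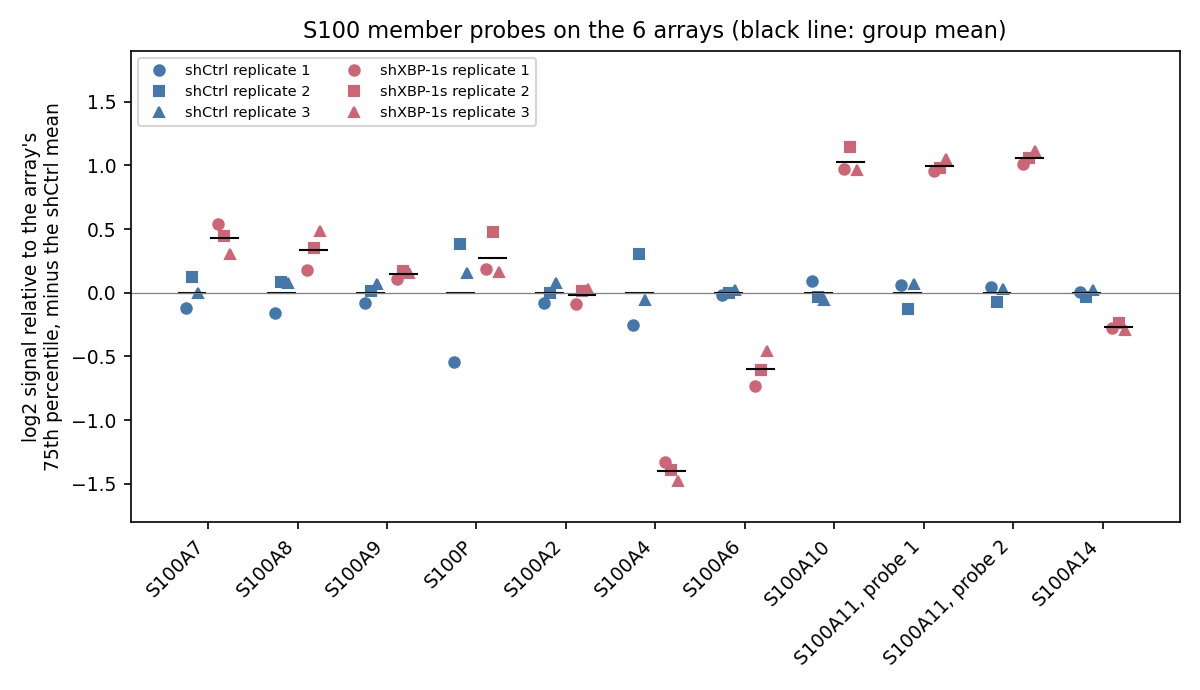
Log2 signal of each S100 probe on each of the 6 arrays, with the mean of the shCtrl arrays of that probe set to 0 (horizontal axis, probe; vertical axis, log2 difference; black lines, group means). S100A10 and both S100A11 probes lie about 1 log2 unit higher in shXBP-1s, S100A4 lies 1.40 lower, and S100P and S100A2 overlap between the groups.

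S100A10 and S100A11 rose about 2-fold. S100A10, also called p11, is the light chain of the annexin A2 tetramer at the plasma membrane. Its level was 3.46, 3.33 and 3.32 on shCtrl arrays 1, 2 and 3 and 4.34, 4.51 and 4.33 on the shXBP-1s arrays. Every shXBP-1s array was above every shCtrl array by a wide gap relative to the spread within a group. The means were 3.37 ± 0.08 and 4.40 ± 0.10 (SD, n = 3), a log2 fold change of 1.03 (SE 0.07, 95% confidence interval 0.87 to 1.18, limma adjusted p = 1.46e-05), or 2.04-fold. The background-subtracted signals before scaling were 7571, 7674 and 7521 in shCtrl and 19915, 20414 and 15981 in shXBP-1s cells. Because the fold lies just past 2, the call was lost with the scan as a block (0.93), without shCtrl replicate 3 (0.998) and without shXBP-1s replicate 2 (0.97), each with the same direction.

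S100A11, or calgizzarin, binds annexin A1 and takes part in keratinocyte growth control. Its brighter probe gave 2.33, 2.14 and 2.33 in shCtrl and 3.22, 3.25 and 3.32 in shXBP-1s cells. Its dimmer probe gave 1.46, 1.34 and 1.44 and then 2.43, 2.47 and 2.53. The groups did not overlap for either probe. The log2 fold change was 0.997 (SE 0.06, limma adjusted p = 1.29e-05), or 1.995-fold, for the brighter probe, which fell just short of the minimum fold. It was 1.06 (SE 0.05, limma adjusted p = 4.20e-06), or 2.09-fold, for the dimmer probe, which was called. The probes thus differed in the call but by little in size, and the brighter one passed 2-fold in 8 of the alternative settings and stayed between 0.93 and 1.22 over all of them. Both S100A10 and S100A11 lie side by side on chromosome 1, apart from the main S100 cluster.

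S100A4 fell most among the members. It encodes a protein, also called metastasin or FSP1, that binds nonmuscle myosin and is known from fibroblasts and invasive tumour cells. Its level was -1.75, -1.19 and -1.56 on the shCtrl arrays and -2.83, -2.89 and -2.98 on the shXBP-1s arrays. The shCtrl arrays scattered more, yet the lowest of them stood above every shXBP-1s array. The means were -1.50 ± 0.28 and -2.90 ± 0.08 (SD, n = 3), and the level fell by 1.40 on the log2 scale (SE 0.13, 95% confidence interval -1.71 to -1.09, limma adjusted p = 9.35e-05), a 2.64-fold lower level. The signals before scaling were 204.3, 333.2 and 256.7 against 138.5, 120.5 and 100.4. Over the alternative settings the log2 fold change ran from -1.53 to -0.83, and the call was lost under normexp background correction with quantile normalization (-0.83).

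The 250 bases before the transcription start of the 4 members below are printed because S100A10, S100A11 and S100A4 carry the called changes and S100A9 is a subunit of the secreted calprotectin. They are RefSeq sequences of GRCh38.p14, read 5′ to 3′ on the gene's strand. Capitals mark matches, on either strand, to the 4 motifs searched, which are spelled out after the sequences.
S100A10, chr1:151993860-151994109, minus strand: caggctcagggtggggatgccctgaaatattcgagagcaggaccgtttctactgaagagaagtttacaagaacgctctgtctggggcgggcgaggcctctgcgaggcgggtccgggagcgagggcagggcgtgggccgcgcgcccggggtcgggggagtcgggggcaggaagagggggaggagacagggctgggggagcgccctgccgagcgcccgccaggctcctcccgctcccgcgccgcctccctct
S100A11, chr1:152037005-152037254, minus strand: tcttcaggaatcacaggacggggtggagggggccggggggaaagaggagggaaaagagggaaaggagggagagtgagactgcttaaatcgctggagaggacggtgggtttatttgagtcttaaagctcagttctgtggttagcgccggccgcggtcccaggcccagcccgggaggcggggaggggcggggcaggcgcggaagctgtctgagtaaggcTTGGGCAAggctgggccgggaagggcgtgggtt
S100A4, chr1:153545807-153546056, minus strand: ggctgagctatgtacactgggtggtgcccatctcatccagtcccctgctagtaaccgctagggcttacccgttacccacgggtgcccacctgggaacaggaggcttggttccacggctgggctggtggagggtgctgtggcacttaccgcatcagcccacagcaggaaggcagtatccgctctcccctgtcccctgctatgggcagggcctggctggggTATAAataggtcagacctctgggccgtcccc
S100A9, chr1:153357604-153357853, plus strand: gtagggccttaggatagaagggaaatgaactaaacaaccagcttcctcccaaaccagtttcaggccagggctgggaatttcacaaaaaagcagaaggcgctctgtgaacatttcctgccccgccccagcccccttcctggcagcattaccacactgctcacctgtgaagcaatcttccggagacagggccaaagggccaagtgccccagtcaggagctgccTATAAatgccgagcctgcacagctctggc
The GC content was 71.2% in the S100A10 window, 63.6% in that of S100A11, 62.8% in that of S100A4 and 55.6% in that of S100A9, and the median over all promoter windows was 58.0%. TATAA, the core of a TATA box, occurred in 7 of the 10 members (S100A7, S100A8, S100A9, S100P, S100A4, S100A6 and S100A14) and in 22.5% of 27305 genes. The other members, S100A10, S100A11 and S100A2, held none in these windows. TGANTCA, bound by AP-1 factors, occurred in 1 member, S100A2, and in 8.06% of all genes. TTGCNNAA, bound by C/EBP factors, occurred in 1 member, S100A11, on the opposite strand, and in 11% of all genes. ACGTG, a core found in some XBP1 and ATF6 sites, occurred in no member and in 21.7% of all genes. Other forms of XBP1 and ATF6 sites were not searched, so its absence does not mean that such sites are lacking. A match to these letters is no evidence of binding, and the windows cover 250 bases only.

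S100A6 and S100A14 also had lower values in shXBP-1s cells, by less than 2-fold. S100A6, or calcyclin, binds the ubiquitin ligase component CACYBP and several annexins. Its level was 6.33, 6.35 and 6.37 in shCtrl and 5.62, 5.74 and 5.89 in shXBP-1s cells, and the groups did not overlap. The log2 fold change was -0.60 (SE 0.07, 95% confidence interval -0.77 to -0.42, limma adjusted p = 3.99e-04). S100A14, a family member of stratified epithelia, had levels of 2.85, 2.81 and 2.87 and then 2.57, 2.60 and 2.55, with a log2 fold change of -0.27 (SE 0.04, limma adjusted p = 0.00151). The 3 arrays of each group lay close together for S100A14, with an SD of 0.03 in both. Neither gene passed the adjusted p under normexp with the 75th percentile, where S100A6 was at -0.48 and S100A14 at -0.13 (limma adjusted p = 0.451 for each). The median of all probes in that setting was -0.41, so S100A14 lay above it and S100A6 just below it.

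S100A2, a nuclear protein of basal keratinocytes that binds p53, gave values of 6.43, 6.51 and 6.59 in shCtrl and 6.42, 6.52 and 6.54 in shXBP-1s cells. The groups overlapped, with a log2 fold change of -0.02 (SE 0.06, 95% confidence interval -0.16 to 0.13, limma adjusted p = 0.872), so that an S100A2 change of more than 0.16 in either direction lies outside the interval. Its sign changed with the scaling.

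The secreted members S100A7, S100A8, S100A9 and S100P were all higher on average in shXBP-1s cells, by 0.14 to 0.43 on the log2 scale with a median of 0.31, but by limma none of the 4 was called. At an unadjusted limma p below 0.05 there were 3 of the 4, compared with 54% of all tested genes. The adjusted p was passed by 2, compared with 46.4% of all tested genes. All 4 lay below 2-fold, so any rule with that minimum calls none of them. S100A7, or psoriasin, is an antimicrobial protein of inflamed and transformed squamous epithelium. Its level was 2.94, 3.17 and 3.05 in shCtrl and 3.59, 3.50 and 3.36 in shXBP-1s cells. The groups did not overlap, and the log2 fold change was 0.43 (SE 0.08, 95% confidence interval 0.25 to 0.61, limma adjusted p = 0.00321), or 1.35-fold. Its 10 spots gave a view of the error between spots of the same array. The SD of log2 signal over the spots of an array was between 0.02 and 0.09, below the SD of 0.12 between arrays of either group. Technical error between arrays is not measured by the spots.

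S100A8 and S100A9 form the heterodimer calprotectin, which withholds zinc and manganese from microbes and is released by neutrophils and stressed keratinocytes. S100A8 had levels of 5.94, 6.18 and 6.18 in shCtrl and 6.28, 6.45 and 6.58 in shXBP-1s cells. The lowest shXBP-1s array exceeded the highest shCtrl array by less than the spread within the groups. The log2 fold change of S100A8 was 0.34 (SE 0.10, 95% confidence interval 0.11 to 0.56, limma adjusted p = 0.0255), and the adjusted p was 0.0600 without shCtrl replicate 1, 0.0762 without shXBP-1s replicate 2 and 0.0706 without shXBP-1s replicate 3, in a range of 0.00122 to 0.407 over all alternatives. S100A9 had levels of 4.66, 4.75 and 4.81 and then 4.84, 4.91 and 4.89. These too did not overlap, but the difference was small, 0.14 (SE 0.06, 95% confidence interval 0.01 to 0.27, limma adjusted p = 0.0725). S100A9 passed the adjusted p under quantile normalization (0.24, limma adjusted p = 0.00609), with the authors' log2 values (0.22, 0.00813) and with the scan as a block (0.23, 0.0469), and its log2 fold change was 0.10 to 0.24 over all alternatives. The difference between the S100A8 and S100A9 responses was not tested.

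S100P, first found in placenta and a ligand of RAGE, had a dim signal of 27.4 to 72.3 over the 6 arrays. Its level was -4.65, -3.72 and -3.95 in shCtrl and -3.92, -3.63 and -3.94 in shXBP-1s cells, and the groups overlapped. The log2 fold change was 0.27 (SE 0.23, 95% confidence interval -0.25 to 0.80, limma adjusted p = 0.369). It was set by shCtrl replicate 1, the lowest array, since it was 0.00 without that array and 0.82 against that array alone with the scan as a block (limma adjusted p = 0.00791, in a range up to 0.984 over all alternatives).

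**Figure D2:**
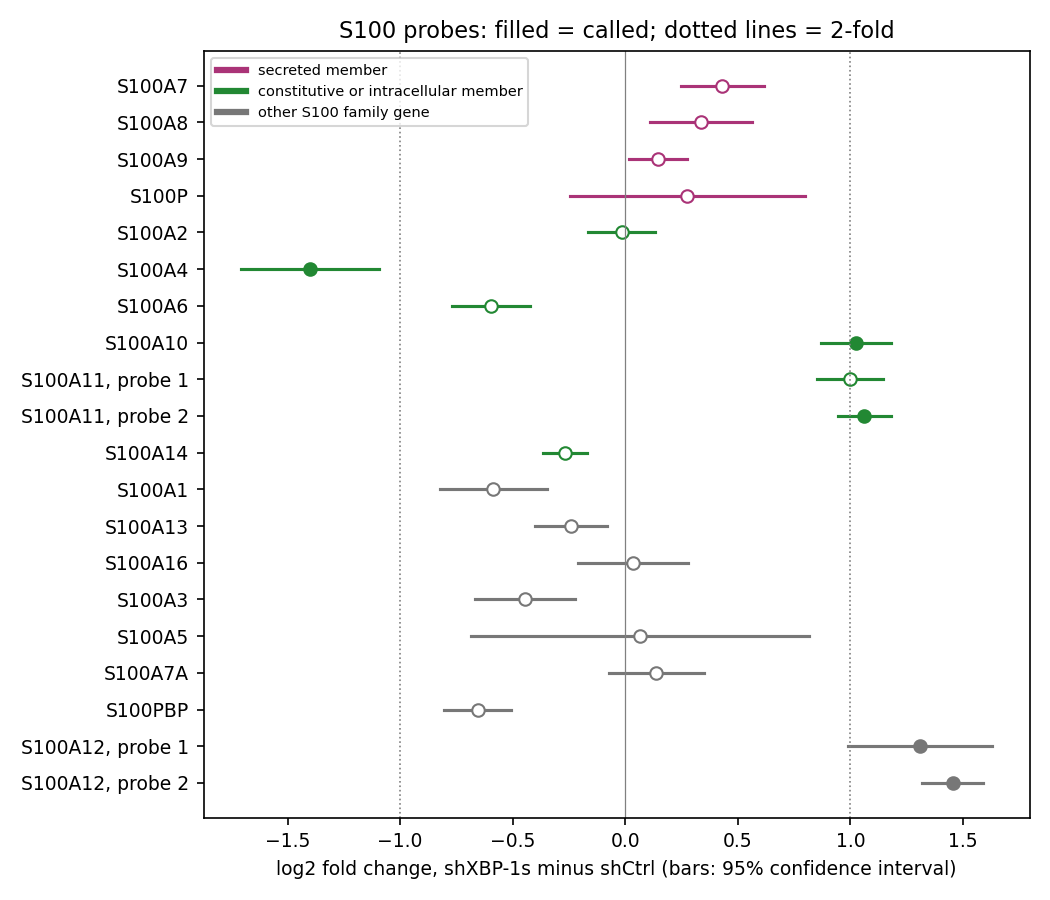
Log2 fold change of each tested S100 family probe, shXBP-1s minus shCtrl, with 95% confidence intervals (horizontal axis, log2 fold change; rows, probes; dotted lines, 2-fold; filled points, called). S100A4 lies on the left, S100A10, S100A11 and S100A12 lie on the right, and the secreted members lie between 0.14 and 0.43; S100PBP, which encodes a binding partner of S100P, was kept with the family.

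Of 12 further genes listed with the family, 11 were on the array and 8 were tested. Of these, 1 was called higher and none lower, where 2.3% and 2.88% of all tested genes were. Another 4 had lower values that passed the adjusted p, compared with 27.5% of all tested genes. The gene called was S100A12, or calgranulin C, a neutrophil protein related to S100A8 and S100A9. Its first probe had a level of -3.26, -2.65 and -3.02 in shCtrl and -1.73, -1.60 and -1.67 in shXBP-1s cells, with a log2 fold change of 1.31 (SE 0.14, limma adjusted p = 1.69e-04). Its second probe rose by 1.45 (SE 0.06, limma adjusted p = 2.52e-06). Under normexp background correction neither S100A12 probe reached 2-fold, at 0.61 and 0.57 with the 75th percentile and at 0.87 and 0.91 with quantile normalization. The 4 genes with lower values were S100A1 (-0.59, limma adjusted p = 0.00234), S100A3 (-0.45, 0.00680), S100A13 (-0.24, 0.0241) and S100PBP (-0.65, 1.11e-04). Of S100A12 and these 4 genes, 1 (S100PBP) passed the adjusted p under normexp with the 75th percentile, and S100A13 also missed it with the scan as a block (0.111). S100A16 had a log2 fold change of 0.03, S100A5 of 0.07 and S100A7A, a close paralog of S100A7, of 0.14, and none of these passed the adjusted p. S100B, S100G and S100Z were not well above background on any array. Whether the S100A7 probe also binds S100A7A transcripts was not tested. Of 7 genes of the S100-fused proteins of the cornified layer, which carry an S100 domain on a long repeat, 4 were tested. All 4 lay below 2-fold, so 0 were called by limma. At an unadjusted p below 0.05 there was 1, TCHHL1 (-0.72, limma adjusted p = 0.0177, and -0.71 with the scan as a block). TCHHL1 missed the adjusted p under normexp with the 75th percentile (limma adjusted p = 0.451). FLG, which encodes filaggrin, had a log2 fold change of -0.09, TCHH of -0.04 and CRNN of 0.13.

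**Figure D3:**
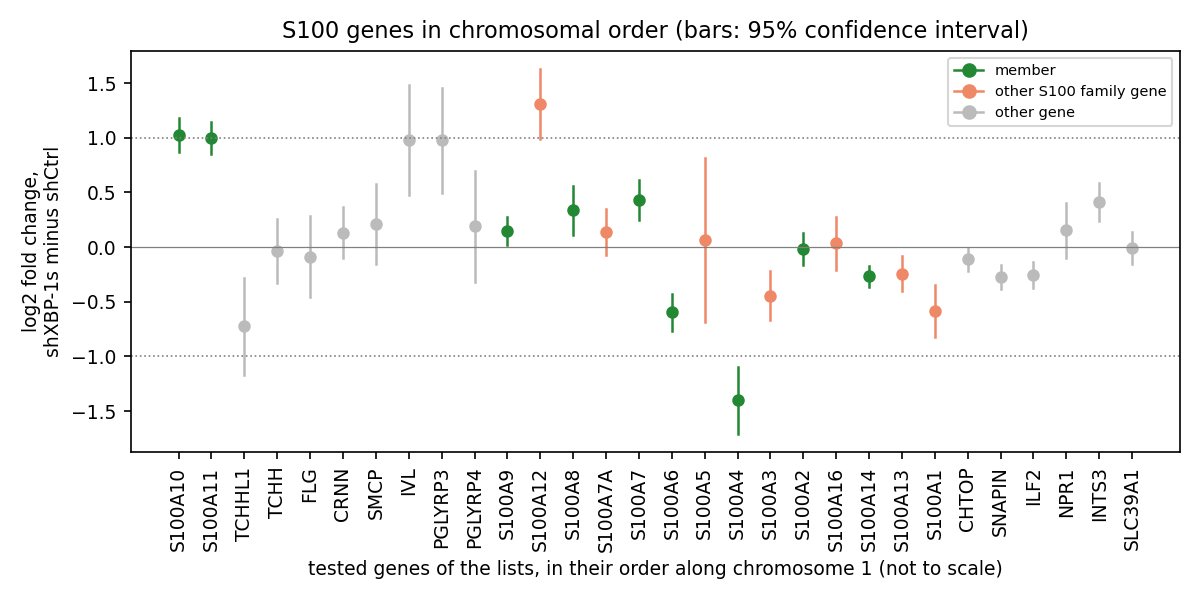
Log2 fold change, shXBP-1s minus shCtrl, of the tested S100 genes and listed neighbours in their order along chromosome 1, with 95% confidence intervals (vertical axis, log2 fold change; horizontal axis, genes in order and not to scale; colours, members, other S100 genes and other genes; dotted lines, 2-fold). Genes from S100A9 to S100A7 lie above 0, and most of those from S100A6 to S100A1 lie below 0.

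In chromosomal order, neighbouring S100 genes mostly had the same direction, though S100A5 (0.07) and S100A16 (0.03) lay slightly above 0 between genes below 0. The stretches described here were picked out after the values had been seen and so carry no test. Taken by brightest probe, both S100A10 and S100A11 were higher at an adjusted p below 0.05, with a median log2 fold change of 1.01. In the stretch S100A9, S100A12, S100A8, S100A7A and S100A7, 3 of 5 were higher and 0 were lower by limma, with a median of 0.34. In the stretch S100A6, S100A5, S100A4, S100A3, S100A2, S100A16, S100A14, S100A13 and S100A1, 0 were higher and 6 of 9 were lower, with a median of -0.27. Under normexp with the 75th percentile the adjusted p was passed, in the same direction, by 2 of 2, 1 of 3 and 1 of 6 of these genes. Over all tested genes 18.9% were higher and 27.5% lower by the same rule. Of 12 other genes near the cluster, 10 were tested and 0 were called by limma, as all 10 lay below 2-fold. At an unadjusted p below 0.05 there were 6, near the 54% of all tested genes. Of these, 3 passed the adjusted p as higher, including IVL, which encodes the envelope protein involucrin (0.98), and PGLYRP3, a bacterial cell wall recognition protein (0.98). IVL was at -0.81 and PGLYRP3 at -0.62 under normexp with the 75th percentile, at 0.10 and 0.23 under normexp with quantile normalization, and at 0.67 and 0.49 with the scan as a block, where neither passed the adjusted p (0.0961 and 0.0508). IVL was well above background on 1 of 3 shCtrl arrays and on all 3 shXBP-1s arrays. SNAPIN (-0.27) and ILF2 (-0.25) were lower, though none of the 5 neighbours that passed did so under normexp with the 75th percentile, and CHTOP (-0.11) did not pass the adjusted p.

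Of 11 tested genes for intracellular partners of S100 proteins, 0 were called higher and 1 lower, where 2.3% and 2.88% of all tested genes were. At the adjusted p 2 were higher and 2 lower, compared with 18.9% and 27.5% of all tested genes. The median log2 fold change of the 11 was 0.07. The gene called was SRI, which encodes sorcin, a calcium-binding EF-hand protein of another family. It fell from -1.42 ± 0.14 to -2.92 ± 0.08 (SD, n = 3), a 2.83-fold lower level (SE of the log2 fold change 0.08, limma adjusted p = 7.68e-06). ANXA1, the annexin bound by S100A11, had mean levels of 5.16 ± 0.10 and 5.90 ± 0.09 (SD, n = 3), a log2 fold change of 0.74 (SE 0.07, limma adjusted p = 1.07e-04). ANXA2, the partner of S100A10, was measured by probes that differed. Its brighter probe gave 0.20 (SE 0.07, limma adjusted p = 0.0537) and its dimmer probe 0.50 (SE 0.08, limma adjusted p = 0.00120). AHNAK, a scaffold bound by the S100A10 and annexin A2 complex, had a log2 fold change of -0.08 (limma adjusted p = 0.461) for its brightest probe. It was -0.82 (SE 0.08, limma adjusted p = 1.02e-04, groups not overlapping) for the next and 0.13 (limma adjusted p = 0.364) for the dimmest, so that its probes disagreed. The brightest and the dimmest share a RefSeq transcript, and the AHNAK probe at -0.82 is annotated to another.

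Among 7 genes for receptors of extracellular S100 proteins, all tested, 1 was called higher, compared with 2.3% of all tested genes. At the adjusted p 2 were higher and 1 lower, compared with 18.9% and 27.5% of all tested genes. The median log2 fold change of the 7 was 0.09. MCAM, an adhesion molecule known to bind S100A8 and S100A9, rose from -1.73 ± 0.03 to -0.41 ± 0.05 (SD, n = 3), by 1.32 on the log2 scale (SE 0.05, limma adjusted p = 2.20e-06), and fell just short of 2-fold under normexp with the 75th percentile (0.996). ALCAM, a related adhesion molecule, had a log2 fold change of 0.70 (SE 0.05, limma adjusted p = 2.99e-05), and BSG, which encodes basigin, of -0.25 (limma adjusted p = 0.0215, but 0.277 with the scan as a block). NPTN, which encodes neuroplastin, was at 0.09 (SE 0.05, limma adjusted p = 0.179). The RAGE gene AGER was at -0.34 (SE 0.16, limma adjusted p = 0.121), and the 2 probes of TLR4 were at 0.25 and 0.27 (limma adjusted p = 0.0532 and 0.0559), so that neither gene passed the test.

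Of 13 other epithelial alarmins and antimicrobial genes, 12 were on the array and 9 were tested. The limma test called 2 higher and none lower, where 2.3% and 2.88% of all tested genes were. At the adjusted p 4 were higher and 1 lower, compared with 18.9% and 27.5% of all tested genes. The median log2 fold change of the 9 was 0.17. PI3, which encodes the protease inhibitor elafin, rose from -3.63 ± 0.10 to -2.26 ± 0.09 (SD, n = 3), by 1.37 on the log2 scale (SE 0.08, limma adjusted p = 9.64e-06). RNASE7, a skin antimicrobial ribonuclease, rose by 1.24 (SE 0.13, limma adjusted p = 1.78e-04). Neither reached 2-fold under normexp background correction, where PI3 was at 0.35 and RNASE7 at 0.62 with the 75th percentile and PI3 was at 0.80 and RNASE7 at 0.91 with quantile normalization, and RNASE7 was at 0.91 with the scan as a block. SLPI, a secreted protease inhibitor, was at 0.47 and IL1A, an epithelial alarm cytokine, at 0.32. HMGB1, a nuclear protein released as an alarm signal, was at 0.11 (SE 0.05, limma adjusted p = 0.107). LCN2, an iron-chelating antimicrobial protein, was lower at -0.35 (SE 0.08, limma adjusted p = 0.00865), and missed the adjusted p under quantile normalization (-0.26, 0.0539).

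Since S100A8, S100A9 and S100A12 are abundant in neutrophils and monocytes and S100A4 in fibroblasts, the levels of marker genes of other cells were examined. The summed level of the squamous markers, as a ratio to the 75th percentile, was 46.9 to 53.7 in shCtrl and 81.7 to 98.2 in shXBP-1s cells. Such a sum adds probes of unlike response and follows its brightest probe, here that of SFN, without which it was 5.39 to 5.62 and 14.7 to 15.4. KRT14, KRT17, KRT5 and DSG3 were called higher. DSG3 fell short of 2-fold under normexp, at 0.92 with the 75th percentile and 0.96 with quantile normalization, where the keratins kept the call. The neutrophil and monocyte markers had a summed level of 5.30 to 7.43 in shCtrl and 4.81 to 5.14 in shXBP-1s cells, and 8 of the 9 on the array were well above background on every array. The sum was set mainly by its brightest probe, that of CD14, a receptor of monocytes, which was at a ratio of 3.91 to 5.72 in shCtrl and 2.52 to 2.82 in shXBP-1s cells (log2 fold change -0.84, limma adjusted p = 0.00110). Without CD14 the sum was 1.39 to 1.79 in shCtrl and 2.16 to 2.37 in shXBP-1s cells. Of the 9 genes, S100A12 and MPO were called higher. S100A12 is itself on this marker list and adds to both sums. Its rise is therefore no separate measure of these cells. MPO, the myeloperoxidase of neutrophils, was not well above background on any shCtrl array and was at least 6.22-fold higher in shXBP-1s cells (limma adjusted p = 1.22e-05), a bound taken against the lowest signal well above background. It entered the test only through the shXBP-1s arrays. Its log2 fold change was -0.39 under normexp with the 75th percentile, where the median of all probes was -0.41. Under normexp with quantile normalization it was 0.47. The MPO call was lost under both, so that it depended on the background correction. The 5 lymphocyte markers were well above background on every array, with a summed level of 0.241 to 0.271 in shCtrl and 0.240 to 0.271 in shXBP-1s cells. The fibroblast markers had a summed level of 0.952 to 1.04 in shCtrl and 0.610 to 0.634 in shXBP-1s cells, and of 0.257 to 0.265 and 0.294 to 0.335 without their brightest probe, that of PDGFRB. Among them LUM was called higher (1.94, and 0.34 under normexp with the 75th percentile) and PDGFRB lower (-1.28), and COL3A1 and THY1 were not well above background. Their part in the S100 values was not tested. All 6 samples are labelled as the CAL-27 line, and between 82.1% and 84.8% of all spots on an array were well above background. Passing that flag therefore does not show that other cell types were present. A change in the share of cells in some state and a change in RNA per cell cannot be told apart in these bulk samples.

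The genes whose profile over the 6 arrays was most like that of each secreted member, by the root mean square difference of log2 values after centring each gene, were named as a description. For S100A7 they were SCARNA16 (0.0346), FBXL19-AS1 (0.0360) and TRABD (0.0363), and 273 genes lay within a difference of 0.1. For S100A8 they were DIPK1A (0.0253), the epithelial kallikrein KLK6 (0.0288) and UFD1 (0.0357), with 355 genes within 0.1. For S100A9 they were KRTAP1-3 (0.0162), RAB5A (0.0175) and NUP42 (0.0179), with 2483 genes within 0.1. For S100P only 5 genes lay within 0.1, the closest being LINGO2 (0.0836), KCTD19 (0.0890) and SCGB3A2 (0.0954). All profiles shared the same 6 arrays and scaling.

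**Figure D4:**
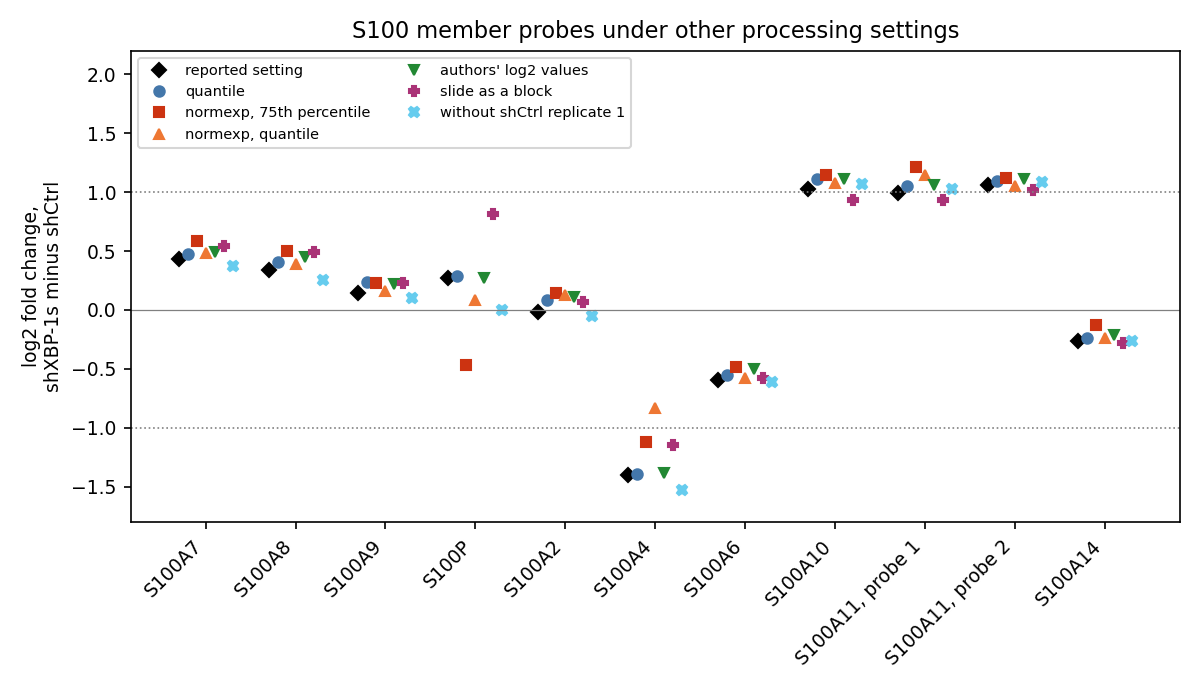
Log2 fold change of each S100 probe, shXBP-1s minus shCtrl, under the reported setting and 6 others (horizontal axis, probe; vertical axis, log2 fold change; symbols, settings; dotted lines, 2-fold). S100A10 and S100A11 stay near 1, S100A4 stays below -0.8, and S100P spreads from -0.47 to 0.82 with the setting.

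The scaling moved the smaller differences. Under normexp background correction with the 75th percentile the median log2 fold change of all probes was -0.41, so that signed values there are to be read against that shift, and 33.6% of called probes were higher in place of 46.7%. Of the 7 members that passed the adjusted p by their brightest probe, 4 still did so there. For S100A2 the unscaled signals of the groups did not overlap, at 73687 to 84443 in shXBP-1s and 59255 to 72770 in shCtrl cells, whereas the scaled values did. The signals at the 75th percentile differed between arrays in the same direction, at 792.0 to 983.4 and 687.4 to 761.3.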

How the data were processed

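Total RNA of 6 CAL-27 samples was hybridised to 1-colour Cy3 Agilent arrays (annotation build hg19). The labels' labelling text names a NimbleGen protocol. For each array the authors deposited Agilent Feature Extraction 11.0.1.1 output, which gives a background-subtracted, detrended intensity per spot. The authors also deposited log2 values of the same arrays, with a median of 6.27 in each column and a correlation with the scanner values of 0.9997 to 0.9999, used as an alternative. The submitters' processing notes name RMA, without a version or role, and the scale and centring of that table are otherwise not given in the sources used here.

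Groups and replicate numbers came from the sample titles. The log2 of the processed signal minus the 75th percentile of the non-control spots of its array was used, without spots flagged as non-uniform or population outliers (230 to 377 per array), and spots of a probe were averaged. The 1377 control spots were left out, and 19 probes without a value on every array were not tested. The test took each probe that either group showed well above background, by more than 50% of its spots, on all of its 3 arrays. It was made with limma 3.58.1 in R 4.3.3 (lmFit, eBayes with trend, 2-sided, Benjamini-Hochberg over 27624 probes). Of the probes, 25771 were given a symbol by matching accessions to RefSeq of GRCh38.p14. Array precision is limited by the number of arrays. On simulated data for this comparison over 27624 probes, limma recovered 190 of 200 changed probes (95%) with 1 false call. In the data themselves 11516 probes passed the adjusted p, far more than were changed in the simulation. Its figures therefore do not measure how reliable the calls reported here are.

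The members and gene lists were chosen with earlier results of these data known. The genes named are all members, XBP1, list genes that were called or otherwise bright, and the 3 closest profiles of each secreted member; the other genes named passed the adjusted p or are those a result turns on, and were chosen after their values were seen. The alternatives were quantile normalization, normexp background correction (offset 50, on the median spot signal), the authors' log2 values, other filters, limma without trend, the methods' t-test, no minimum fold, blocks for replicate number or scan, 1 array left out, and other ways to take the probes of a gene.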

Additional observations from a re-analysis of the deposited data

How the results depend on the processing

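The number of S100 probes called was 3, and it was 4 under quantile normalization, under normexp with the 75th percentile and with the authors' log2 values, and 2 with the scan as a block. Without a minimum fold it was 8, and for all probes 11516 in place of 1354. Over all probes normexp gave 473 calls with the 75th percentile and 363 with quantile normalization. The replicate numbers were not taken as pairs, as deviations of same-numbered arrays correlated at -0.016, 0.117 and -0.116, and with the replicate number as a block (replicate block) 3 S100 probes and 1381 of all probes were called. Leaving out 1 array gave 3 to 4 S100 probes and 1253 to 1695 of all probes. Counted by brightest probe 2 genes were called. The sign of S100P turned under normexp with the 75th percentile (-0.47), where the median of all probes was -0.41. That of S100A2 turned under quantile normalization (0.0869), normexp with the 75th percentile (0.147) or quantile normalization (0.130), the authors' values (0.113), the scan block (0.0649), and without shCtrl replicate 3 or shXBP-1s replicate 1, where leaving out 1 array gave a range of -0.0552 to 0.0249. The other 9 S100 probes kept the sign of their log2 fold change under every alternative run. Against that median of -0.41, however, S100A14 lay above it at -0.13 and S100A6 just below it at -0.48. The cause was not tested.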
